A study of Mus musculus with 6 samples.

Results

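The set described here is Peg3, Mest, Grb10, Plagl1, Ndn, Impact, Sgce, Dlk1 and Nnat, imprinted genes with roles in growth and in neural stem cells. The 9 genes were chosen by symbol, and all 9 were found among the 14327 genes of the table. Mouse hippocampal neural stem cells, taken at postnatal day 0 and grown as neurospheres with B27, N2, EGF and bFGF, gave 6 RNA libraries. Of these, 3 were labelled cKO, for a conditional knockout of Slc22a17, which encodes a receptor of lipocalin 2, and 3 were labelled WT. All cultures shared the same medium and extraction. The Cre driver, the deleted part of the gene, the strain and the sex of the mice are not stated in the labels. Since separate animals or cultures are not stated either, p-values measure only a spread between libraries that may be largely technical. The WT libraries differed in Y-linked transcripts, as given below, so their spread was not technical alone. Values are FPKM, fragments scaled to transcript length and library size, a scale on which genes can be compared per length. Read totals are not given, so the depth behind each value is unknown.

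An imprinted gene is transcribed from 1 parental chromosome, because a control region near it carries DNA methylation from the egg or the sperm. Zinc finger proteins with their co-repressor, and the maintenance methyltransferase, keep this mark through cell division. In mouse tissues where they are imprinted, Peg3, Mest, Plagl1, Ndn, Impact, Sgce, Dlk1 and Nnat are transcribed from the paternal copy. Grb10 is maternal in most tissues and paternal in neurons. Many imprinted genes are abundant in embryonic tissue and decline after birth, and several limit or sustain stem cells. FPKM sums both parental copies, so allele of origin was not measured.

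The transcript of Slc22a17 was not lost in the cKO-labelled libraries, at 163.8, 166.1 and 186.8 FPKM, against 180.6, 169.0 and 203.9 FPKM in WT (log2 fold change -0.10, limma adjusted p = 0.707). Every direction given here is therefore between libraries by label. Whether the cells have or lack a working gene was not tested. The Y-linked genes Ddx3y and Eif2s3y together reached 50.5, 43.8 and 51.2 FPKM in cKO replicates 1 to 3, and 0.10, 0.07 and 25.9 FPKM in WT replicates 1 to 3, so they were near absent from WT replicates 1 and 2. Y-linked level nearly follows the group, and WT replicate 3 is the only library that departs from this. The Y-linked difference and the group therefore cannot be reliably told apart. Stem cell markers were abundant, with Sox2 between 122.8 and 137.0 FPKM in the cKO-labelled libraries and between 125.1 and 148.0 FPKM in WT, and the 9 markers of that list summed to between 3587 and 3889 FPKM in the cKO-labelled libraries and between 3880 and 4078 FPKM in WT. Of the 9 neuron markers measured, 3 averaged 1 FPKM or more, namely Map2, Gap43 and Tubb3. Tubb3 was higher without overlap in the cKO-labelled libraries (log2 fold change 0.30, limma adjusted p = 0.279), where 17.2% of all tested genes did not overlap. Map2 and Gap43 had lower means there and overlapped, with log2 fold changes of -0.02 and -0.18. The list summed to between 83.2 and 102.7 FPKM in the cKO-labelled libraries and between 86.0 and 93.2 FPKM in WT, most of it Map2, while the neuroblast marker Dcx was at 0.33 FPKM or less in the cKO-labelled libraries and 0.47 FPKM or less in WT. Sums were lower for the lists of cell types that are neither neural stem cells, neurons, astrocytes nor oligodendrocytes. Markers of microglia summed to between 8.87 and 22.3 FPKM in the cKO-labelled libraries and between 16.3 and 17.8 FPKM in WT. Those of choroid plexus and ependyma summed to between 30.0 and 36.8 FPKM in the cKO-labelled libraries and between 35.5 and 39.5 FPKM in WT. Markers of fibroblasts and meninges stayed at 5.97 FPKM or less in the cKO-labelled libraries and 5.92 FPKM or less in WT, and those of endothelium at 1.30 FPKM or less in the cKO-labelled libraries and 1.78 FPKM or less in WT.

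Markers of both kinds of glia were abundant, and their lists had opposite median log2 fold changes, with 0 genes past the threshold in either. Of 10 astrocyte markers 8 had higher and 2 lower means in the cKO-labelled libraries, with a median log2 fold change of 0.31, 6 at an unadjusted p under 0.05, against 12.3% of all tested genes, and 5 higher without overlap, where 17.2% of tested genes did not overlap in either direction. The log2 fold changes of lowest p were those of Gjb6 (0.69), Hopx (1.46), Sparcl1 (0.52) and Aldoc (0.41), while Gfap overlapped at 0.13 and Aldh1l1 and Aqp4 were at -0.04 and -0.14. The list summed to between 5114 and 5511 FPKM in the cKO-labelled libraries and between 3670 and 5070 FPKM in WT. Of 10 oligodendrocyte lineage markers 2 had higher and 8 lower means in the cKO-labelled libraries, with a median of -0.17, 4 at an unadjusted p under 0.05 and 2 lower without overlap. Those of lowest p were Mag (-0.54), Mog (-0.46), Cnp (-0.19) and Mbp (-0.66). The 2 with higher means were Pdgfra (0.24) and Cspg4 (0.07), whose groups overlapped. In sum the oligodendrocyte list lay between 1351 and 1597 FPKM in the cKO-labelled libraries and between 1418 and 1869 FPKM in WT. Most of it was Olig1 and Olig2. Both lists were chosen with earlier results of these data known, so their counts beside all tested genes describe them and are no test. The part of either list in the values of the 9 genes was not tested.

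None of the 9 genes passed the test between the groups. Across the 11596 genes that averaged 1 FPKM or more, limma called 3 at an adjusted p of 0.05, or 0.0259%, and 0 of the 9 were among them. At an unadjusted p under 0.05 the counts were 0 of 9 and 12.3% of all tested genes. The cKO and WT values overlapped for all 9, where 17.2% of tested genes had groups that did not overlap. In such bulk samples fewer cells of a type and less RNA per cell cannot be told apart. The means of 3 genes were higher and those of 6 lower in the cKO-labelled libraries, with 44.5% of all tested genes higher. The median log2 fold change was -0.04 over the 9 genes and -0.02 over all tested genes. The log2 fold changes ran between -0.27 for Dlk1 and 0.13 for Impact, on the log2(FPKM + 1) scale, which understates changes of the genes near 1 FPKM.

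**Figure D1:**
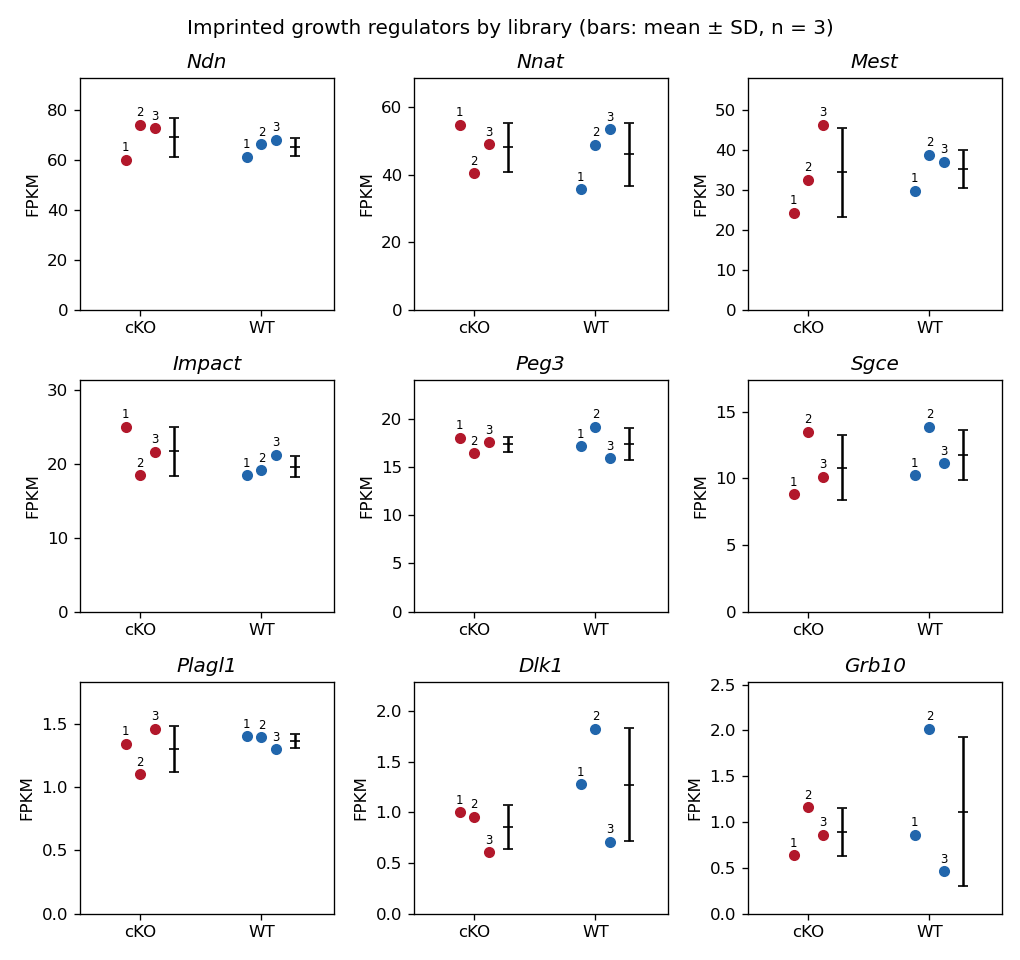
FPKM of each gene in the 3 cKO-labelled libraries (left, red) and the 3 WT libraries (right, blue), numbered by replicate, with the group mean ± SD beside them. The groups overlap in all 9 panels, and the WT replicate 2 point stands highest for Grb10, Dlk1, Sgce and Peg3.

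By level the genes fell into an abundant and a scarce class. Averaged over the 6 libraries, Ndn stood highest at 67.0 FPKM, followed by Nnat at 47.2, Mest at 34.8, Impact at 20.6, Peg3 at 17.4 and Sgce at 11.3 FPKM. Plagl1 at 1.33, Dlk1 at 1.07 and Grb10 at 1.00 FPKM followed, with Grb10 exactly at the limit for testing. The ranges of Ndn and Nnat, of Peg3 and Sgce, and of Sgce and Plagl1 did not overlap over the 6 libraries. Nnat was above Mest in every library, although their ranges overlapped. The order changed between libraries for the neighbouring pairs Mest and Impact, Impact and Peg3, Plagl1 and Dlk1, and Dlk1 and Grb10.

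Growth suppressors and their regulators come first. Ndn encodes necdin, a MAGE family protein of the Prader-Willi region that binds E2F1 and holds back proliferation of neural cells. It lies on chromosome 7 (62348277 to 62349928 in GRCm38). Ndn was at 60.0, 74.0 and 72.7 FPKM in cKO replicates 1 to 3, against 61.2, 66.2 and 68.0 FPKM in WT replicates 1 to 3. Replicate 1 was the lowest of each group and the groups overlapped. The means were 68.9 ± 7.75 FPKM in the cKO-labelled libraries and 65.1 ± 3.53 FPKM in WT (SD, n = 3 each). This was a log2 fold change of 0.08, with a 95% interval of -0.12 to 0.28 (limma adjusted p = 0.788).

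Plagl1, also called Zac1, encodes a zinc finger transcription factor that stops the cell cycle and is known in mouse as a regulator of other imprinted genes (chromosome 10, 13090832 to 13131694). It was scarce and even, at 1.34, 1.10 and 1.46 FPKM in the cKO-labelled libraries, against 1.40, 1.39 and 1.30 FPKM in WT. Its log2 fold change was -0.04, with an interval of -0.28 to 0.20 (limma adjusted p = 0.913).

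Grb10 encodes an adaptor that binds the insulin and IGF1 receptors and dampens their signal (chromosome 11, 11930499 to 12037428). It was at 0.64, 1.16 and 0.86 FPKM in cKO replicates 1 to 3, against 0.86, 2.02 and 0.46 FPKM in WT replicates 1 to 3. WT replicates 2 and 3 held the highest and the lowest value of all 6 libraries, 4.39-fold apart, and the cKO-labelled libraries lay between them. The log2 fold change was -0.11, with an interval of -0.67 to 0.46 (limma adjusted p = 0.907). Without WT replicate 2 it was 0.19, and with Y-linked share added as covariate 1.01 (limma adjusted p = 0.921).

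Peg3 encodes a large zinc finger protein that acts in growth, cell survival and maternal behaviour and marks several kinds of adult stem cell (chromosome 7, 6703892 to 6730462). Its level was the most even of the abundant genes, at 18.03, 16.5 and 17.6 FPKM in the cKO-labelled libraries, against 17.1, 19.2 and 15.9 FPKM in WT. The means were 17.4 ± 0.80 FPKM in the cKO-labelled libraries and 17.4 ± 1.65 FPKM in WT (SD, n = 3 each). The fold on the FPKM + 1 scale was 1.00, with a 95% interval of 0.88 to 1.13 (limma adjusted p = 0.997).

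Dlk1 encodes a membrane and secreted protein with EGF repeats, a non-canonical ligand of Notch that niche astrocytes secrete and neural stem cells carry in the adult mouse brain (chromosome 12, 109452485 to 109463336). It was at 1.00, 0.96 and 0.61 FPKM in cKO replicates 1 to 3, against 1.28, 1.83 and 0.71 FPKM in WT replicates 1 to 3. WT replicates 1 and 2 lay above all cKO-labelled libraries, and WT replicate 3 lay below cKO replicates 1 and 2. The means were 0.86 ± 0.21 FPKM in the cKO-labelled libraries and 1.27 ± 0.56 FPKM in WT (SD, n = 3 each). This was a log2 fold change of -0.27, with an interval of -0.70 to 0.16 (limma adjusted p = 0.611). With a pseudocount of 0.1 it was -0.46 (limma adjusted p = 0.630), while against WT replicate 3 alone it was 0.11 and with Y-linked share added as covariate 0.61.

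Among the genes of metabolism and stress, Mest encodes an enzyme of the alpha/beta hydrolase fold that promotes growth of the embryo and of fat cells (chromosome 6, 30733506 to 30748466). It was at 24.2, 32.5 and 46.3 FPKM in cKO replicates 1 to 3, against 29.7, 38.7 and 37.0 FPKM in WT replicates 1 to 3. The cKO-labelled libraries held both the lowest and the highest value, 1.91-fold apart. Their mean was 34.4 ± 11.1 FPKM, and that of WT 35.2 ± 4.77 FPKM (SD, n = 3 each). This was a log2 fold change of -0.07, with an interval of -0.53 to 0.39 (limma adjusted p = 0.925).

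Impact encodes a protein that binds GCN1 and so restrains the amino acid sensor kinase GCN2, and is abundant in neurons (chromosome 18, 12954690 to 12992950). It was at 25.0, 18.4 and 21.6 FPKM in the cKO-labelled libraries, against 18.5, 19.1 and 21.2 FPKM in WT. The means were 21.7 ± 3.29 FPKM in the cKO-labelled libraries and 19.6 ± 1.45 FPKM in WT (SD, n = 3 each). Its log2 fold change of 0.13 (interval -0.11 to 0.37, limma adjusted p = 0.666) was the highest of the set, while cKO replicate 2 lay at the level of the lowest WT library.

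Nnat encodes neuronatin, a small proteolipid of the endoplasmic reticulum that raises calcium and promotes neural fate (chromosome 2, 157560078 to 157562525). It was at 54.9, 40.5 and 49.2 FPKM in cKO replicates 1 to 3, against 35.7, 49.0 and 53.7 FPKM in WT replicates 1 to 3. The lowest library was WT replicate 1, and without it the log2 fold change was -0.10, where all 6 libraries gave 0.07 (interval -0.28 to 0.43, limma adjusted p = 0.896).

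Sgce encodes epsilon-sarcoglycan, a membrane protein of the dystrophin-associated complex whose human gene is mutated in myoclonus-dystonia (chromosome 6, 4674350 to 4747204). It was at 8.81, 13.5 and 10.1 FPKM in cKO replicates 1 to 3, against 10.3, 13.9 and 11.2 FPKM in WT replicates 1 to 3. Replicate 2 was the highest of each group and replicate 1 the lowest, while the means of 10.8 ± 2.41 FPKM in the cKO-labelled libraries and 11.8 ± 1.88 FPKM in WT (SD, n = 3 each) differed by less than these spreads. The log2 fold change was -0.12 (interval -0.47 to 0.23, limma adjusted p = 0.802).

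**Figure D2:**
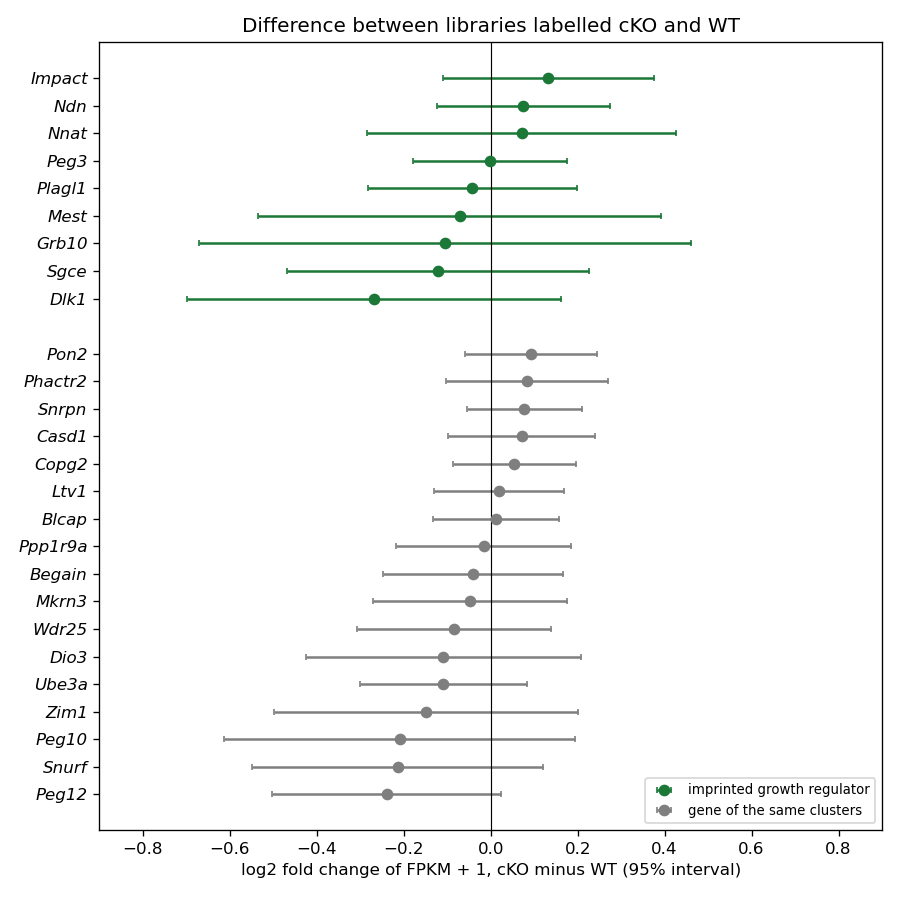
Log2 fold changes of FPKM + 1, cKO minus WT, with 95% intervals from limma, for the 9 imprinted growth regulators (green) and the 17 tested genes of the same chromosomal clusters (grey). Every interval includes 0, and those of Grb10 and Dlk1 are among the widest.

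Several of the genes varied widely between libraries of the same group. The SD within groups on the log2(FPKM + 1) scale was 0.40 for Grb10, 0.35 for Mest, 0.29 for Dlk1, 0.26 for Nnat and 0.25 for Sgce, against a median of 0.10 over all tested genes. For Grb10 98.7% of tested genes had a lower SD, for Mest 98.1%, for Dlk1 96.2%, for Nnat 94.98% and for Sgce 94.0%. Grb10 and Dlk1 are also among the scarcer tested genes, whereas Mest and Nnat are abundant. Impact at 0.16 and Ndn at 0.13 lay closer to the median, and Peg3 at 0.10 and Plagl1 at 0.09 lay near it. The spread lay mainly in WT for Grb10, with an SD of 0.20 in the cKO-labelled libraries and 0.53 in WT, and mainly in the cKO-labelled libraries for Mest, with 0.45 there and 0.20 in WT.

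**Figure D3:**
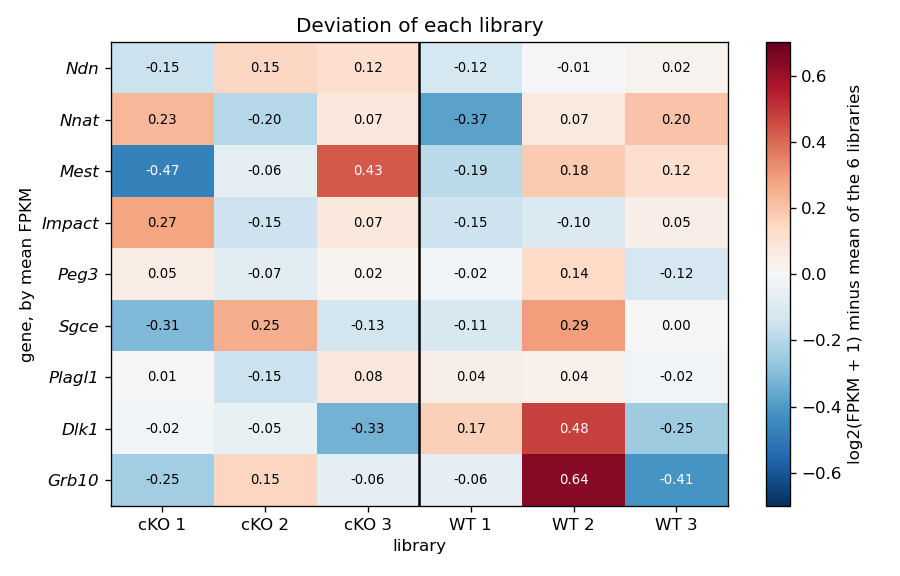
Each cell gives log2(FPKM + 1) of a gene (rows, by mean FPKM) in a library (columns, cKO left of the line and WT right of it) minus the mean of the 6 libraries. Grb10 at 0.64 and Dlk1 at 0.48 stand out in WT replicate 2, and Mest at -0.47 and 0.43 in cKO replicates 1 and 3.

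The genes did not rise and fall as one block across libraries. WT replicate 2 held the highest value of 4 of the 9, Peg3, Grb10, Sgce and Dlk1. It also held the highest value of 13 of the 44 tested imprinted and neighbouring genes, 29.5%, where it held the highest value of 26.4% of all tested genes, so the share was near the background. Impact and Nnat were both highest in cKO replicate 1, whereas Mest and Sgce were lowest there.

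The promoters of Mest and Plagl1 are shown because these are the only ones of the 7 genes with a RefSeq window whose 250 bases before a start hold TGCCGC, the hexamer bound by ZFP57, a zinc finger protein that keeps imprints. The capitals mark its reverse complement GCGGCA, since both strands were searched. The Mest window precedes an internal start (chr6:30737800-30738049, plus strand, GRCm38.p6) and the Plagl1 window its annotated start (chr10:13090582-13090831, plus strand, GRCm38.p6).
Mest: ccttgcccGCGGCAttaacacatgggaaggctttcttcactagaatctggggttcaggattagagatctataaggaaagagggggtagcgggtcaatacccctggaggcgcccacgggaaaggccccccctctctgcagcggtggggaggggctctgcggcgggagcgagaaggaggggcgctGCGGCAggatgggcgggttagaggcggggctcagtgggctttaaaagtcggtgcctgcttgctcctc
Plagl1: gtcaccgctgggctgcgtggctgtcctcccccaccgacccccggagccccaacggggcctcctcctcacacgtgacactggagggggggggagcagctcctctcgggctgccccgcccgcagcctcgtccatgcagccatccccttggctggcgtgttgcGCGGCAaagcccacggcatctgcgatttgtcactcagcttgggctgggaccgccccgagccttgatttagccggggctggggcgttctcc
Mest held 2 matches and Plagl1 held 1. The hexamer occurs in 8.68% of all 32851 such windows and in 20.7% of those with at least 14 CpG, the number in the Mest window. The Plagl1 window had 19 CpG, against a median of 6 over all windows. Among the windows without the hexamer, those of Grb10 had 40 and 8 CpG, that of Nnat 12, those of Peg3 and Dlk1 8 each, another of Mest 7 and that of Ndn 5. Zfp57 itself was scarce, at 0.98, 1.06 and 1.21 FPKM in the cKO-labelled libraries, against 0.61, 1.71 and 0.79 FPKM in WT.

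Neighbours in the same imprinted clusters were likewise without a call. Of 34 listed genes 23 were in the table and 17 were tested, of which 7 had higher and 10 lower means in the cKO-labelled libraries. Their median log2 fold change was -0.04, with 0 past the threshold. At an unadjusted p under 0.05 there were 0, against 12.3% of all tested genes. Peg10, a retrotransposon-derived gene that starts beside Sgce on the opposite strand, was at 1.34, 1.32 and 1.24 FPKM in the cKO-labelled libraries, against 1.30, 2.60 and 1.27 FPKM in WT. WT replicate 2 alone stood apart there, as it did for Zim1, a zinc finger gene beside Peg3, at 1.36, 1.21 and 1.00 FPKM in the cKO-labelled libraries, against 1.24, 2.02 and 1.10 FPKM in WT. Casd1, on the other side of Sgce, lay between 6.39 and 6.84 FPKM in the cKO-labelled libraries and between 5.86 and 6.68 FPKM in WT.

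In the Ndn cluster the genes of lowest p were Peg12, at 8.93, 7.23 and 10.5 FPKM in the cKO-labelled libraries, against 10.4, 10.2 and 11.2 FPKM in WT (limma adjusted p = 0.454), and Snurf (limma adjusted p = 0.606). Snrpn, a splicing protein gene that shares its transcript with Snurf, lay between 45.6 and 47.7 FPKM in the cKO-labelled libraries and between 41.6 and 45.7 FPKM in WT. Mkrn3 lay between 1.63 and 1.71 FPKM in the cKO-labelled libraries and between 1.56 and 1.94 FPKM in WT. Ube3a, the maternally expressed ubiquitin ligase of neurons, lay between 10.2 and 12.3 FPKM in the cKO-labelled libraries and between 11.1 and 12.8 FPKM in WT. Pon2, a lactonase gene near Sgce, had a limma adjusted p of 0.620.

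Nnat and Mest share genomic sequence with another coding gene. Nnat lies within Blcap on the opposite strand, and Mest overlaps Copg2 on the opposite strand, in GENCODE's annotation of GRCm38. Whether counting used strand is not stated in the labels, so reads of such a pair may not have been told apart. Blcap lay between 27.7 and 29.5 FPKM in the cKO-labelled libraries and between 26.4 and 29.7 FPKM in WT, a narrower range than that of Nnat. Copg2 lay between 23.2 and 25.9 FPKM in the cKO-labelled libraries and between 23.2 and 24.5 FPKM in WT, a narrower range than that of Mest. Beside Grb10, Ddc and Cobl were below the limit for testing, at 0.23 and 0.56 FPKM or less in the cKO-labelled libraries and 0.20 and 0.58 FPKM or less in WT. Usp29, which starts beside Peg3, was at 0.33 FPKM or less in the cKO-labelled libraries and 0.27 FPKM or less in WT. Dio3, in the Dlk1 cluster, lay between 1.47 and 1.94 FPKM in the cKO-labelled libraries and between 1.49 and 2.40 FPKM in WT. Phactr2, near Plagl1, was the only tested neighbour whose groups did not overlap, where 17.2% of all tested genes did not. Its values were 3.65, 3.33 and 3.19 FPKM in the cKO-labelled libraries, against 3.14, 3.17 and 3.11 FPKM in WT (limma adjusted p = 0.735).

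Genes elsewhere in the genome that are known as imprinted in some tissue had more spread-out differences, but none passed. Whether they are imprinted in these cells was not measured. Of 40 listed genes 26 were in the table and 18 tested, with 10 higher and 8 lower means in the cKO-labelled libraries. The median log2 fold change of the 18 was 0.02. At an unadjusted p under 0.05 there were 4, against 12.3% of all tested genes. Without overlap 4 were higher and 2 lower, against 17.2% of all tested genes in either direction. Osbpl5, a lipid transfer protein gene, was at 7.84, 6.38 and 6.48 FPKM in the cKO-labelled libraries, against 5.40, 4.23 and 5.74 FPKM in WT (log2 fold change 0.37, limma adjusted p = 0.275). Gatm, the first enzyme of creatine synthesis, was at 140.7, 131.2 and 151.0 FPKM in the cKO-labelled libraries, against 113.9, 130.4 and 118.8 FPKM in WT (limma adjusted p = 0.303). Tssc4, a splicing factor gene beside Cd81, had a limma adjusted p of 0.317.

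Cdkn1c, the cyclin-dependent kinase inhibitor p57 that keeps neural stem cells quiescent, was at 0.98, 0.93 and 1.05 FPKM in the cKO-labelled libraries, against 1.52, 2.44 and 1.20 FPKM in WT (log2 fold change -0.43, limma adjusted p = 0.342). Its groups did not overlap and WT replicate 2 was again the highest. Igf2, the fetal growth factor, was below the limit for testing at 0.19, 0.11 and 0.14 FPKM in the cKO-labelled libraries, against 0.28, 0.27 and 0.26 FPKM in WT.

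Of the machinery that keeps imprints, most listed genes averaged 1 FPKM or more, and none passed. Of 20 listed genes 18 were in the table and 17 tested, with 5 higher and 12 lower means and a median log2 fold change of -0.05. Without overlap 3 were lower, against 17.2% of all tested genes in either direction. At an unadjusted p under 0.05 there was 1, against 12.3% of all tested genes. That gene was Dnmt1, the maintenance methyltransferase, at 22.6, 19.8 and 23.3 FPKM in the cKO-labelled libraries, against 26.2, 26.6 and 26.6 FPKM in WT (log2 fold change -0.26, limma adjusted p = 0.235). Its groups did not overlap. Uhrf1, which brings Dnmt1 to newly copied DNA, was at 18.4, 17.8 and 25.0 FPKM in the cKO-labelled libraries, against 24.3, 23.1 and 25.0 FPKM in WT (limma adjusted p = 0.443). Rif1, a replication timing factor, and Cbx5, a heterochromatin protein, had limma adjusted p-values of 0.548 and 0.599. Trim28, the co-repressor of ZFP57, lay between 54.7 and 63.4 FPKM in the cKO-labelled libraries and between 56.5 and 63.7 FPKM in WT.

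Genes whose products work with the 9 proteins were described last. Of 29 listed genes 27 were in the table and 25 tested, with 9 higher and 16 lower means in the cKO-labelled libraries. The median log2 fold change of the 25 was -0.06, with 0 past the threshold. At an unadjusted p under 0.05 there were 4, against 12.3% of all tested genes. Without overlap 1 was higher and 3 lower, against 17.2% of all tested genes in either direction. Dtna, which encodes dystrobrevin alpha of the dystrophin complex to which the sarcoglycans belong, was at 56.7, 57.0 and 56.3 FPKM in the cKO-labelled libraries, against 45.1, 41.0 and 46.5 FPKM in WT (log2 fold change 0.35, limma adjusted p = 0.131). All cKO-labelled libraries lay above all WT libraries. Dtna passed with library weights (limma adjusted p = 0.030), a setting that called 129 of all 11596 tested genes, where the reported fit called 3. Under no other alternative did Dtna pass. Dystrobrevin is abundant in astrocytes, and the part of the astrocyte and oligodendrocyte marker values given above in that of Dtna was not tested. Of the other listed partner genes of that complex, Dag1, Sgcb, Sspn and Dmd were tested, and their groups overlapped. Their log2 fold changes were -0.09, -0.10, 0.03 and 0.07. Dmd lay between 31.0 and 33.7 FPKM in the cKO-labelled libraries and between 30.0 and 31.6 FPKM in WT.

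E2f1, the transcription factor bound by necdin, was at 7.76, 7.77 and 8.33 FPKM in the cKO-labelled libraries, against 9.25, 9.94 and 9.68 FPKM in WT (log2 fold change -0.25, limma adjusted p = 0.235). Hes1, a target of Notch, was at 10.4, 7.91 and 10.9 FPKM in the cKO-labelled libraries, against 11.6, 11.7 and 12.5 FPKM in WT (limma adjusted p = 0.353). Irs2, an insulin receptor substrate, was at 12.9, 15.6 and 16.56 FPKM in the cKO-labelled libraries, against 18.7, 18.2 and 16.61 FPKM in WT (limma adjusted p = 0.363). For these 3 genes the groups did not overlap. The receptors themselves lay close together, with Insr between 6.48 and 7.15 FPKM in the cKO-labelled libraries and between 6.57 and 8.08 FPKM in WT.

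**Figure D4:**
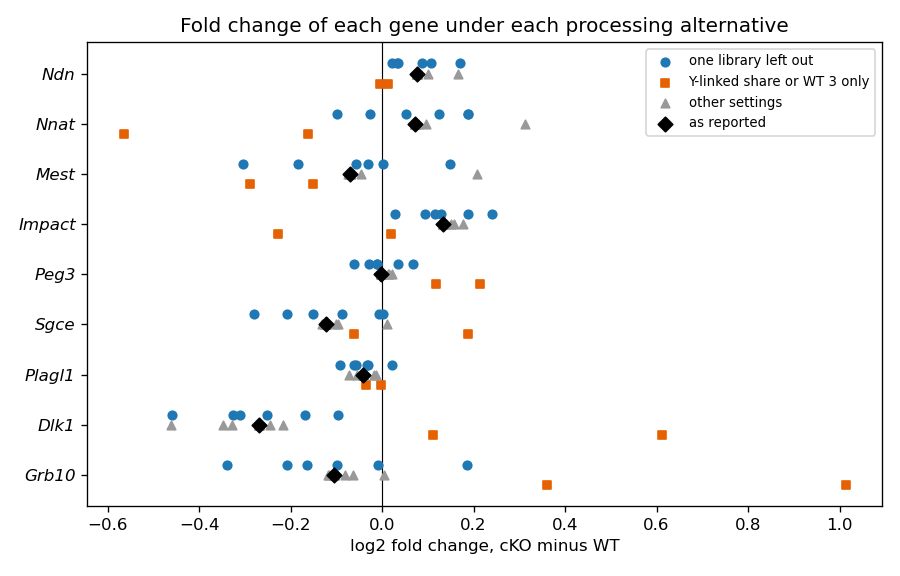
Log2 fold change, cKO minus WT, of each gene (rows, by mean FPKM) under every processing alternative, with the reported value as a black diamond. Leaving out 1 library moved Grb10 between -0.34 and 0.19 and Mest between -0.30 and 0.15, and the squares, which use the Y-linked share or WT replicate 3 alone, lie at up to 1.01 for Grb10.

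Direction was thus not fixed for most of the 9 genes. Each gene changed sign under at least 1 alternative, and none passed the threshold under any. The lowest adjusted p of any gene under any alternative was that of Ndn with library weights (limma adjusted p = 0.230, log2 fold change 0.17). Dlk1 kept a negative sign without any single library, between -0.46 and -0.10, and turned with the alternatives built on Y-linked transcripts. Against WT replicate 3 alone, the WT library that also holds Y-linked transcripts, the log2 fold changes of Grb10, Peg3 and Dlk1 were 0.36, 0.12 and 0.11, and that of Nnat was -0.16 (limma adjusted p = 0.999 for each).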

How the data were processed

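RNA from 6 neurosphere libraries was sequenced and processed by the BGISEQ service that the labels' protocols name. The authors deposited FPKM values with 2 decimals, per the file headers, 1 for each gene in each library. The submitters' processing notes name Bowtie2 and GRCm38 (mm10). Counting tool, annotation and filters are not stated there or in the labels. Whole fragments were looked for in values of 0.1 to 0.6 FPKM of short genes with 1 transcript in GENCODE M21, 45 to 53 values a library. At the best of 400 trial depths, a choice that raises the share, 43.4% to 56.6% fell within 0.1 of a whole number. The settings were chosen with an earlier such search known. The best trial depths lay between 16700000 and 17450000 fragments over the 6 libraries. Whether these are the true depths was not tested. No count model was run, depth is unknown and no counting error is given.

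The scale was log2(FPKM + 1), for the 11596 genes that averaged 1 FPKM or more, which left out 2731. limma 3.58.1 (R 4.3.3) compared the groups two-sided, by lmFit and eBayes with trend, and Benjamini-Hochberg adjusted p-values, over every gene tested, were called under 0.05. The fit was tested on simulated data with planted changes larger than those of the 9 genes. That test does not bear on differences as small as theirs. The members and lists were chosen with earlier results of these data known. Named are the 9 genes, their cluster neighbours, the 4 genes of lowest p in each list, and checks of the labels. Of the 8 cell type marker lists the text gives the range or the highest value of the sum, and counts with the 4 of lowest p for the astrocyte and oligodendrocyte lists alone. For the neuron list it gives the log2 fold changes of the 3 tested genes. Zfp57, Trim28, Dmd, Dag1, Sgcb, Sspn, Insr, Igf2, Sox2, Dcx, Gfap, Aldh1l1, Aqp4, Pdgfra, Cspg4, Olig1 and Olig2 were named after their values were seen. Gene positions and promoters are RefSeq's for GRCm38.p6. Alternatives were other pseudocounts, filters, scalings, variance models, library weights, a replicate block, left-out libraries, a covariate of Y-linked share (Ddx3y plus Eif2s3y relative to the cKO mean), and no X or Y genes. Figures used matplotlib 3.10.9 in Python 3.11.15.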

Additional observations from a re-analysis of the deposited data

How the results depend on the processing

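None of the 9 genes passed under any of the 19 alternatives that refit the model, nor at an adjusted p of 0.1. The median log2 fold change over the 9 genes ran between -0.098 and 0.067 when 1 library was left out, the highest without WT replicate 2. The number of genes called across the table, 3 with all libraries, was 0 without a filter, with quantile normalization, without a variance trend, against WT replicate 3 alone and with the Y-linked covariate, 129 with library weights, and between 0 and 10 with 1 library left out. Among the protein partners 1 gene, Dtna, was called with library weights. Whether the replicate numbers pair the libraries is not stated in the labels. The deviations of same-numbered libraries from their group means correlated at -0.04, 0.30 and 0.26. For cKO replicates 2 and 3 the best correlation was with the WT library of the same number, and for cKO replicate 1 with WT replicate 3. A replicate block gave 22 calls and none among the 9.

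Signs turned as follows, and the causes were not tested. For Peg3 the log2 fold change was 0.023 with median scaling, 0.012 with quantile normalization, 0.015 with library weights, 0.12 against WT replicate 3 alone and 0.21 with the Y-linked covariate. With library weights it was 0.21 for Mest, 0.0051 for Grb10 and 0.012 for Sgce. With the Y-linked covariate it was 1.01 for Grb10, -0.0039 for Ndn, -0.23 for Impact, 0.19 for Sgce, 0.61 for Dlk1 and -0.57 for Nnat. Against WT replicate 3 alone it was 0.36 for Grb10, 0.11 for Dlk1 and -0.16 for Nnat. With 1 library left out the values ran between -0.061 and 0.067 for Peg3, -0.30 and 0.15 for Mest, -0.34 and 0.19 for Grb10, -0.092 and 0.022 for Plagl1, -0.28 and 0.0025 for Sgce, and -0.10 and 0.19 for Nnat. Ndn, Impact and Dlk1 kept their signs there. Grb10, Plagl1 and Dlk1 have no value under a filter of a mean of at least 5 FPKM. Without WT replicates 1 and 2 the lone WT library is assumed to vary like the others. The Y-linked covariate nearly follows the group except in WT replicate 3, so the values with it rest largely on that library. For Grb10 the standard error was 0.45 with the covariate and 0.25 as reported.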

Other observations

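Over the 6 libraries, the genes with profiles most like those of the 9 genes were sought among at least 8841 genes that averaged 5 FPKM or more. They were Bex2 and Ap3s2 for Nnat, Cox7b and Qsox2 for Ndn, Scrn2 and Snrpe for Mest, Casc4 and Natd1 for Impact, and Kdm3b and Pbrm1 for Peg3. For the scarcer genes they were Dlg1 and Ppp1r15a for Dlk1, Ankfy1 and Ift74 for Grb10, and Ruvbl1 and Ptpn2 for Plagl1, and for Sgce they were Atp5c1 and Picalm. Each was picked as the highest of these many correlations over 6 libraries, so no value of likeness is tested or read further.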
